A study of Mus musculus with 2 samples.

Results

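The chemokine ligands and chemokine receptors of mouse neural stem cells (NSCs) are described here. The genes were taken by their symbols, Ccl, Cxcl, Cx3cl1 and Xcl1 for ligands and Ccr, Cxcr, Cx3cr1, Xcr1, Ccrl1, Ccrl2 and Darc for receptors, from the table of known genes. This gave 58 of 23257 known genes, 36 ligands and 22 receptors, and no measured value was used to choose them. The symbols are older ones in part, and Cxcr7, Ccrl1 and Darc are the genes that RefSeq now lists as Ackr3, Ackr4 and Ackr1.

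The study catalogued long non-coding RNAs of brain cells, and its NSC libraries served as the progenitor end of the oligodendrocyte lineage. The data are poly(A) RNA-Seq of 1 condition in 2 libraries, which are called replicate 1 and replicate 2. The NSCs came from the cerebral cortex of CD-1 mice, an outbred stock, at E14.5. They were bought as NSCs and kept in monolayer culture in medium with the growth factors EGF (20 ng/ml) and FGF (20 ng/ml), which keep such cells dividing. The labels give no engineered allele and no other treatment, and there is no control group, so no comparison between conditions and no test is possible. The paper calls the 2 replicates in its plot of NSCs and OPCs biological, without saying how they were made. The labels do not say whether the libraries came from separate cultures. How much of the spread between them is technical is therefore not known.

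Chemokines are small secreted proteins that guide moving cells, and they are sorted into CC, CXC, CX3C and C subfamilies by the spacing of cysteines near their amino end. Their receptors span the membrane and mostly signal through inhibitory G proteins, while atypical receptors bind chemokines without that signal and take them up or hold them. In the developing cortex Cxcl12 from the meninges guides interneurons and other cells through Cxcr4 and Cxcr7, and Cx3cl1 from neurons acts on Cx3cr1 of microglia.

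Few chemokine genes had a measurable level in NSCs. Levels are FPKM, fragments per kilobase of transcript scaled to the mapped fragments of a library, so they can be set beside each other between genes. No deposited value lies below 0.1, and a gene listed at 0.1 may be low or absent. Of the 58 genes, 8 (13.8%) were above FPKM 1 in both libraries, against 47.7% of all known genes. Above FPKM 0.1 in both were 18 of 58 (31.0%), against 57.8% of all known genes. The other 40 (69.0%) were listed at 0.1 in both libraries, against 40.3% of all known genes. By each of these counts the chemokine genes were a low part of the transcriptome. The median mean FPKM was 0.1 for the chemokine genes and 0.695 for all known genes, and 48 of the 58 lay under the median known gene. Among the 20302 known genes that GENCODE M21 calls protein coding, 53.1% were above FPKM 1 in both libraries. All 58 together held 0.0122% of the summed FPKM of known genes.

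The cells that the libraries hold bear on these genes, since many chemokine receptors belong to immune cells. All 6 NSC markers (Sox2, Nes, Vim, Fabp7, Slc1a3 and Pax6) were above FPKM 1, with a median of 288. Of 11 microglia and macrophage markers found, 10 were at 0.1 in both libraries, Csf1r and the complement genes among them, and Cd68, a lysosomal protein, had 2.61 and 2.33 in replicates 1 and 2. At 0.1 in both were also 5 of 6 endothelial, 5 of 6 lymphocyte and 4 of 6 pericyte and fibroblast markers. Of all known genes 40.3% were at 0.1 in both. All 4 astrocyte markers and 4 of 5 neuron markers were above FPKM 1 (medians 15.9 and 5.20). Their part in the chemokine levels was not tested. In bulk libraries a gene used by few cells cannot be told apart from one used weakly by all of them.

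**Figure D1:**
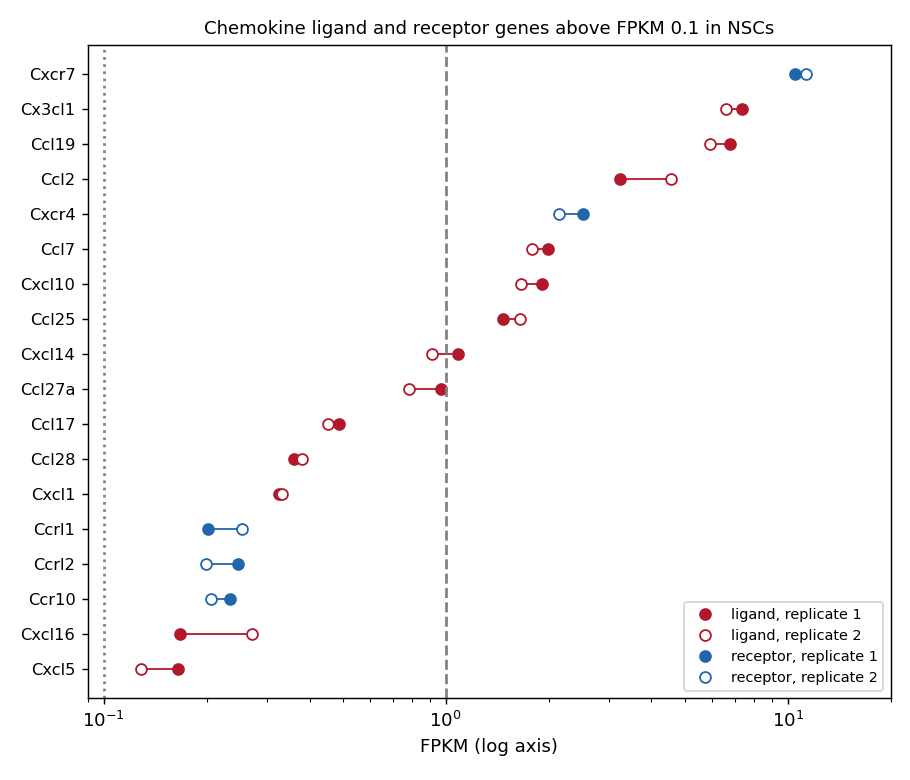
FPKM on a log axis of the 18 chemokine genes above 0.1, by library (filled, replicate 1, open, replicate 2), with ligands in red and receptors in blue; the dotted line is the lowest value of the files, 0.1, and the dashed line is FPKM 1. Cxcr7 stands alone above 10 in both libraries, and Cxcl14 lies on both sides of 1.

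Cxcr7 was the highest of all 58 genes. It encodes an atypical receptor that binds Cxcl12 and Cxcl11, engages arrestins and takes up Cxcl12. Its FPKM was 10.5 and 11.3 in replicates 1 and 2 (10.9 ± 0.568, SD, n = 2), at percentile 76.4 of known genes. It alone made up 69.9% of the summed FPKM of the receptors, which was 15.4 and 15.8. That sum includes the value 0.1 itself for each of the 17 receptors listed at it. The gene lies on chromosome 1 from 90203980 to 90216751, plus strand (GRCm38, GENCODE M21), and no exon of another annotated gene overlaps its exons.

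Cxcr4, the signalling receptor of Cxcl12, had an FPKM of 2.52 and 2.14 (2.33 ± 0.272), below Cxcr7 in both libraries. Its gene also lies on chromosome 1, from 128588199 to 128592293 on the minus strand. Cxcl12, the ligand that both bind, was listed at 0.1 in both libraries, and so was Cxcl11, the other ligand of Cxcr7. GENCODE M21 calls Cxcl11 a polymorphic pseudogene rather than protein coding, and Gm2673 on the opposite strand overlaps 41.7% of its exon bases. The receptors of Cxcl12 thus had values well above the limit of the files and their shared ligand was listed at it.

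The upstream regions of these receptor genes are shown because they are the only receptors above FPKM 1. They are the 250 bases before the RefSeq start on GRCm38.p6, from 5′ to 3′, with matches to TATAAA on either strand in capitals. In Cxcr4 the match on the forward strand begins at position -30 and overlaps a match on the other strand. In Cxcr7 it begins at position -8, counted back from the start.
Cxcr7 (chr1:90203730-90203979, plus strand): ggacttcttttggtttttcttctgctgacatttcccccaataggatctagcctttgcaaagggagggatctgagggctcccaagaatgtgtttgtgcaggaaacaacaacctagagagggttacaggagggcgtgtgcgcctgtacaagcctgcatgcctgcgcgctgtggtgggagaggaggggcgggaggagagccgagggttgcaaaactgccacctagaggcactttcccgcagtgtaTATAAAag
Cxcr4 (chr1:128592300-128592549, minus strand): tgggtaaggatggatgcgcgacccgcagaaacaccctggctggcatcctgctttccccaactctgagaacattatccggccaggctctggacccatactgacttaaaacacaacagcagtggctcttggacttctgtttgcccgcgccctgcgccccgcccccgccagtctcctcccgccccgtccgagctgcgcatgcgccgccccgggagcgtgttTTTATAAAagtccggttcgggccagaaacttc

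TATAAA was found in 25.5% of 51 promoters of chemokine genes and in 13.6% of all 32851 promoters. A promoter here is 250 bases before to 50 bases after a RefSeq start, on either strand, and 42 of the 58 genes have at least 1 in the table used. Cxcr7 and Cxcr4 differ in how rich in CpG these windows are, with an observed over expected CpG of 0.374 and 0.767. These letters are descriptions of the windows, and no factor was measured.

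The remaining receptors were at or near the limit. Of the 10 CC receptors only Ccr10, a receptor of Ccl27 and Ccl28, was above 0.1, with 0.233 and 0.206 in replicates 1 and 2. Ccrl1, an atypical receptor that takes up Ccl19, Ccl21 and Ccl25, had 0.202 and 0.254. Ccrl2, which binds the attractant chemerin rather than signalling for chemokines, had 0.247 and 0.199. The order of Ccrl1, Ccrl2 and Ccr10 was not the same in the libraries, so it is not resolved. Exons of Ccrl1 overlap those of Acad11 on the opposite strand over 479 bases (8.90%), and Acad11 had 3.65 and 3.997. Without strand in the libraries, a read of that stretch cannot be given to either gene.

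The other 9 CC receptors, Cxcr1, Cxcr2, Cxcr3, Cxcr5, Cxcr6, Cx3cr1, Xcr1 and Darc were at 0.1 in both libraries, 17 of 22 receptors. They include Ccr2 of monocytes, Cx3cr1 of microglia, Ccr7 of lymphocytes and dendritic cells, Cxcr2 of neutrophils and Cxcr5 of B cells. Outside the symbols used, the table holds 6 more genes listed as receptors of chemokines or related attractants, and none was above FPKM 1. The highest was Gpr182, an atypical receptor, with 0.413 and 0.403, followed by Pitpnm3 with 0.138 and 0.134. Ccbp2 (Ackr2), which takes up inflammatory CC chemokines, Cmklr1, Gpr35 and Cd74 were at 0.1.

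Among the ligands, 6 of 36 were above FPKM 1 in both libraries and 13 above 0.1. Their summed FPKM was 28.6 and 27.8, of which the 3 highest, Cx3cl1, Ccl19 and Ccl2, made up 61.2%. The ligands at the limit add 8.16% to that sum through the value 0.1 itself.

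Cx3cl1 (fractalkine), the sole member of the CX3C subfamily, is made as a membrane protein with its chemokine domain on a stalk. It had an FPKM of 7.38 and 6.63 in replicates 1 and 2 (7.002 ± 0.532), at percentile 69.3 of known genes. It lies on chromosome 8 from 94772009 to 94782427, plus strand, with no exon overlap. Cx3cr1, its receptor, was at 0.1. The proteases that shed its outer part were higher in FPKM than Cx3cl1 itself. Adam10 had 42.5 and 43.2, and Adam17 had 19.1 and 19.8.

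Ccl19, which in lymphoid tissue draws lymphocytes and dendritic cells through Ccr7, had an FPKM of 6.77 and 5.92 (6.35 ± 0.605). It was below Cx3cl1 in each library, by less than either gene differed between the libraries. The gene lies on chromosome 4 from 42754525 to 42756577, minus strand, in a region with copies of itself. Of the windows of 100 bases in its transcripts, 39.3% also occur in 4 annotated copies, Gm2564, Ccl19-ps3, Gm12407 and Ccl19-ps1. Its value depends on how reads that match several places were divided, and it is uncertain for that reason. Ccl27a, a skin chemokine, had 0.971 and 0.782, below Cxcl14 in each library, and shares 26.5% of its windows with Ccl27b and 4 other genes. Its exons also overlap 8 bases of those of Il11ra1 on the opposite strand, which had 6.18 and 5.83. Ccl27b shares 97.9% of its own windows and was at 0.1.

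Ccl2 and Ccl7 both draw monocytes through Ccr2. Ccl2 had an FPKM of 3.23 in replicate 1 and 4.57 in replicate 2 (3.90 ± 0.948), and Ccl7 had 2.00 and 1.79 (1.89 ± 0.147). Ccl2 was higher in replicate 2 and Ccl7 lower there. Ccl2 lies on chromosome 11 from 82035571 to 82037453, and Ccl7 is the next chemokine gene, from 82045712 to 82047525, both on the plus strand. None of the windows of 100 bases of either gene occurs in another gene.

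Cxcl10, an interferon-induced ligand of Cxcr3, had an FPKM of 1.91 and 1.66 (1.78 ± 0.179), below Ccl7 in each library by less than either gene differed between the libraries. It lies on chromosome 5 from 92346638 to 92348889, minus strand. Its exons overlap those of Art3 on the opposite strand over 133 bases (5.91%), and Art3 had only 0.150 and 0.177. Cxcl9 and Cxcl11, the other ligands of Cxcr3, were at 0.1.

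Ccl25, a ligand of Ccr9 known from thymus and gut, had an FPKM of 1.47 and 1.65 (1.56 ± 0.122). It lies on chromosome 8 from 4325210 to 4360020, plus strand. Its exons overlap those of Elavl1, which encodes an RNA-binding protein, on the opposite strand over 204 bases (2.74%). Elavl1 had 17.0 and 17.5 in replicates 1 and 2, and its part in the value of Ccl25 was not tested.

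Cxcl14, a chemokine of resting tissues whose receptor is not settled, had 1.08 in replicate 1 and 0.913 in replicate 2 (0.998 ± 0.120). It is the only chemokine gene with a library on either side of FPKM 1. Ccl17, a ligand of Ccr4, had 0.487 and 0.454. Ccl28, a mucosal ligand of Ccr10 and Ccr3, had 0.360 and 0.381. The neutrophil attractant Cxcl1 had 0.326 and 0.333, and Cxcl5, which shares its receptor Cxcr2, had 0.164 and 0.129. Each of these 5 differed by at most 1.28-fold between the libraries. Cxcl16, a membrane-bound ligand of Cxcr6, had 0.167 and 0.271, the widest ratio of the low ones, and its exons overlap those of Zmynd15, itself at 0.1.

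The 23 ligands at 0.1 in both libraries were 15 CC ligands (Ccl1, Ccl3, Ccl4, Ccl5, Ccl6, Ccl8, Ccl9, Ccl11, Ccl12, Ccl20, Ccl21c, Ccl22, Ccl24, Ccl26 and Ccl27b), 7 CXC ligands (Cxcl2, Cxcl3, Cxcl9, Cxcl11, Cxcl12, Cxcl13 and Cxcl17) and Xcl1. Ccl3, Ccl4 and Ccl5, which activated macrophages and T cells release in amounts, are among them. The longest transcripts had a median of 1860 bases for the 13 ligands above 0.1 and 1220 bases for the 22 at 0.1 that have one in the annotation. The ranges overlap, from 514 to 3740 bases and from 282 to 5627 bases. Pf4 and Ppbp, platelet chemokines with other symbols, were at 0.1 too. Mif, a cytokine that can bind Cxcr4 and Cxcr7 but is no chemokine in structure, had 225 and 260, far above every chemokine ligand in both libraries.

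**Figure D2:**
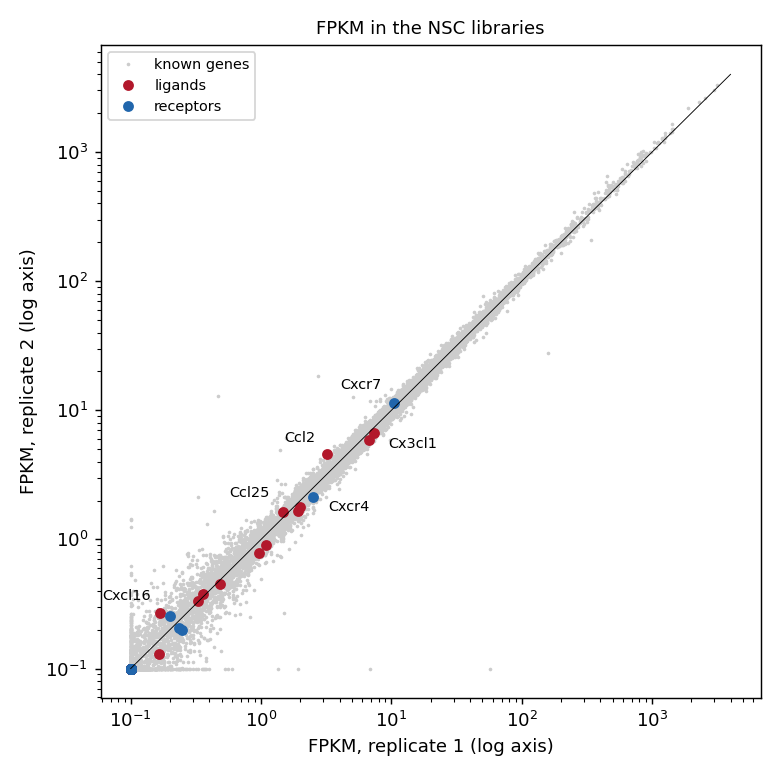
FPKM of 23257 known genes (grey), chemokine ligands (red) and receptors (blue) in replicate 1 (x axis) and replicate 2 (y axis), both axes log, with the line of equal values. Ccl2 (3.23 and 4.57) and Cxcl16 (0.167 and 0.271) lie farthest above the line among the ligands, and 40 genes share the point at 0.1.

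The libraries' log2 ratios (replicate 2 over replicate 1, of FPKM + 0.1) had an SD of 0.24 over the 18 genes above 0.1, and 11 of 18 were lower in replicate 2. Known genes between FPKM 3 and 10 had an SD of 0.18, and 0.436% of these 3668 genes lay beyond 0.5 in either direction. In that range Ccl2 had 0.49 on this scale, which includes the added 0.1, and differed 1.42-fold between the libraries in FPKM itself. Known genes between FPKM 0.1 and 0.3 had an SD of 0.36 and 14.1% beyond 0.5, and there Cxcl16 had 0.48, with a 1.62-fold difference in FPKM. Cxcl16 is thus less far out for its level than Ccl2. For Cxcr7 the log2 ratio was 0.11 and for Cxcr4 it was -0.23.

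Chemokine genes often sit next to each other. Counting genes within 1 Mb of each other as a cluster, 37 genes fell into 10 clusters and 21 stood alone. Ccl21c was counted as alone because it lies on a scaffold outside the assembled chromosomes. Of the 37 genes in clusters 9 were above 0.1, and of the 21 others also 9. The share was 31.0% of all 58 genes and 57.8% of all known genes. In 5 clusters every gene was at 0.1, and in the other 5 genes above 0.1 lay beside genes at it. At 0.1 in both libraries were 69.0% of all 58 genes and 40.3% of all known genes. Nothing is read from the counts by cluster.

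**Figure D3:**
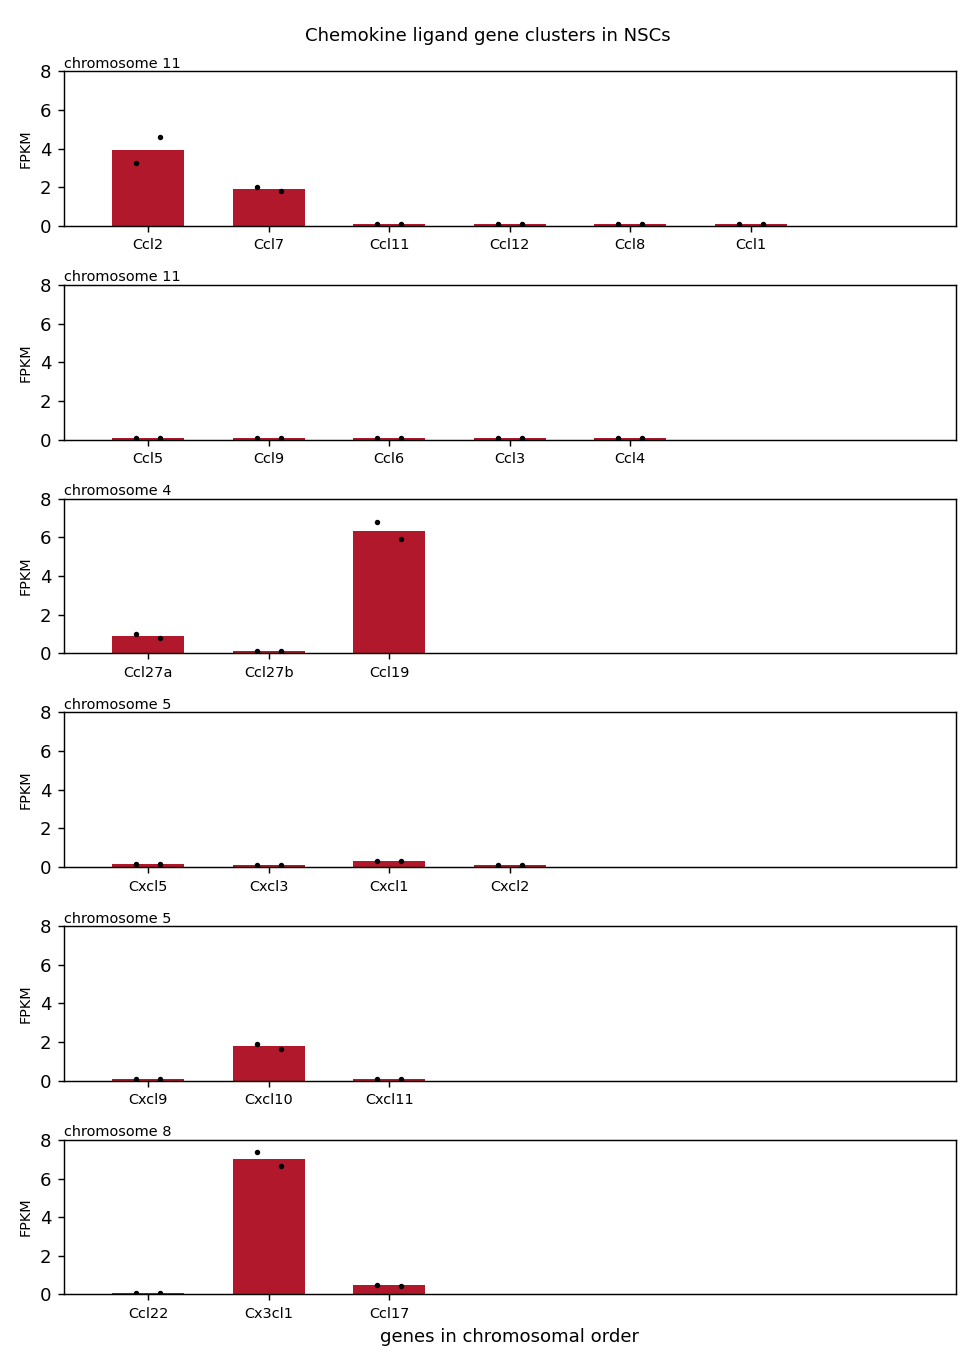
FPKM (y axis, the same linear scale in all panels) of the genes of 6 chemokine ligand clusters in chromosomal order; bars are means of 2 libraries and dots are the libraries. Ccl2, Ccl19 and Cx3cl1 are each the highest of their cluster, and each of these clusters also holds a gene at 0.1.

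The cluster of monocyte and eosinophil attractants on chromosome 11, from 82035571 to 82305690, had Ccl2 and Ccl7 above FPKM 1 and Ccl11, Ccl12, Ccl8 and Ccl1 at 0.1. In the next cluster of that chromosome, from 83525778 to 83664683, Ccl5, Ccl9, Ccl6, Ccl3 and Ccl4 were all at 0.1. On chromosome 8, from 94745590 to 94812036, Cx3cl1 lies between Ccl22 at 0.1 and Ccl17. Cx3cl1 was the highest of these 3 genes in both libraries. On chromosome 9, from 123678439 to 124147699, all 7 receptor genes of a cluster, Ccr9, Cxcr6 and Ccr2 among them, were at 0.1.

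On chromosome 5 lie the neutrophil attractants Cxcl5, Cxcl3, Cxcl1 and Cxcl2, from 90759360 to 90905938, and Cxcl9, Cxcl10 and Cxcl11, from 92321347 to 92365485. From the first group Cxcl1 and Cxcl5 were above 0.1, and from the second Cxcl10. The upstream regions of Cxcl1, Cxcl2 and Cxcl3 are shown because these neighbours hold like letters and only Cxcl1 was above 0.1. Cxcl10, from the second group, is shown beside them because it holds both sets of letters given next. Its neighbour Cxcl9, at 0.1, holds the NF-kappaB letters at position -154 and is not shown. Capitals mark matches on either strand to GGGANNTTC, letters of some sites of the transcription factor NF-kappaB. They also mark TTTCNNTTT, the core letters of the interferon-stimulated response element. Sites with other letters are neither marked nor counted.
Cxcl1 (chr5:90890995-90891244, plus strand, 0.326 and 0.333): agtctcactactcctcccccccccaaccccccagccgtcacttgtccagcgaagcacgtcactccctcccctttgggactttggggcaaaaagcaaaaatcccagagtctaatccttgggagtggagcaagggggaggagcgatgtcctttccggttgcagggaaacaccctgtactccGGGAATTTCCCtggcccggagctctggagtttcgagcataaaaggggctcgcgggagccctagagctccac
Cxcl2 (chr5:90903649-90903898, plus strand, 0.1 in both libraries): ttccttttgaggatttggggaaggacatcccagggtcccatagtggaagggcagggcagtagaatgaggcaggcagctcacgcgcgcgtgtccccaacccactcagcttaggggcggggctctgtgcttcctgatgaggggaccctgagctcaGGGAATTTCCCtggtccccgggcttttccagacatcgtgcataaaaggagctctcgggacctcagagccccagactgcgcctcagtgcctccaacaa
Cxcl3 (chr5:90785851-90786100, plus strand, 0.1 in both libraries): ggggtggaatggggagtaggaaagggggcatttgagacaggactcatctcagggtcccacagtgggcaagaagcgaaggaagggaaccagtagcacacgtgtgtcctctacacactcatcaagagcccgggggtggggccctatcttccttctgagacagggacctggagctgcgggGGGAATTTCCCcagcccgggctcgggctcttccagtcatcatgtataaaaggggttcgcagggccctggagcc
Cxcl10 (chr5:92348890-92349139, minus strand, 1.91 and 1.66): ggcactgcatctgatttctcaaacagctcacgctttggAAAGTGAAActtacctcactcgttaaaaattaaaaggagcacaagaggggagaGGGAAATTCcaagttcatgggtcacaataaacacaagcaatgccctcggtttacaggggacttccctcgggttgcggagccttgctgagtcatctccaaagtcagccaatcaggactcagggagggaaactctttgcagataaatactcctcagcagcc

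Cxcl1, Cxcl2 and Cxcl3 hold the same stretch in capitals, which matches on both strands, with its first base at positions -71, -97 and -73. Of these only Cxcl1 was above 0.1. In Cxcl10 an NF-kappaB match begins at position -159, and a match to the interferon letters on the reverse strand lies farther out, at -212. The NF-kappaB letters were found in 8 of 51 promoters of chemokine genes (15.7%) and in 3.94% of all promoters. Of the 8 genes that hold them, Cxcl1 and Cxcl10 were above 0.1, and Ccl1, Ccr3, Cxcl2, Cxcl3, Cxcl9 and Cxcr2 were at 0.1. Among all 42 chemokine genes with a promoter, 13 were above 0.1 and 29 were at 0.1. The interferon letters were found in 11.8% and 10.6%, in Ccl19, Ccl28, Cxcl10 and Cxcl14 above 0.1 and in Ccl27b and Ccr1 at 0.1. With so few genes, nothing is read from the levels of those that hold either set of letters. TGANTCA, letters of AP-1 sites, were found in 17.6% and 7.81%. TTCNNNGAA, letters of interferon-gamma activated sites, went the other way, with 5.88% and 8.30%. Members of a cluster arose by duplication and share sequence, so their promoters are not independent.

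The CpG content of the promoters spanned a wide range. The median observed over expected CpG was 0.528 for the 13 genes above 0.1 that have a promoter in the table, 0.203 for the 29 at 0.1 and 0.384 for all promoters. Ccl25 had the highest value, 1.28, followed by Cxcl14 with 0.772 and Cxcr4 with 0.767. Ccl17 and Ccl28, with 0.174 and 0.196, were above 0.1 in FPKM with little CpG. Cxcl12 had 0.639, the highest among the genes at 0.1. For a gene with several promoters in the table the first is taken, and Ccl25 has another, with 0.0545. Taking the promoter of lowest CpG of each gene was tried after the data had been seen. It gave medians of 0.39 for the genes above 0.1 and 0.20 for those at 0.1. The median over all promoters, 0.384, takes every promoter of every gene and was not recomputed in this way. These medians are therefore not set against it. No test was made, since genes are not replicates.

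Ligands and receptors were next set side by side in 40 pairs that are known to bind, 35 with a signalling receptor and 5 with an atypical one. The pairs were chosen after the values had been seen. In no pair were both genes above FPKM 1, where 16.7% of all ligands and 9.09% of all receptors were. Above 0.1 were 36.1% of ligands and 22.7% of receptors. Both were above 0.1 in 4 pairs, Ccl27a and Ccl28 with Ccr10, and Ccl19 and Ccl25 with Ccrl1. In 13 pairs only the ligand was above 0.1, in 5 only the receptor and in 18 neither. With so few genes above either threshold, pairs with both above it would be few in any case, and nothing is read from these counts.

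**Figure D4:**
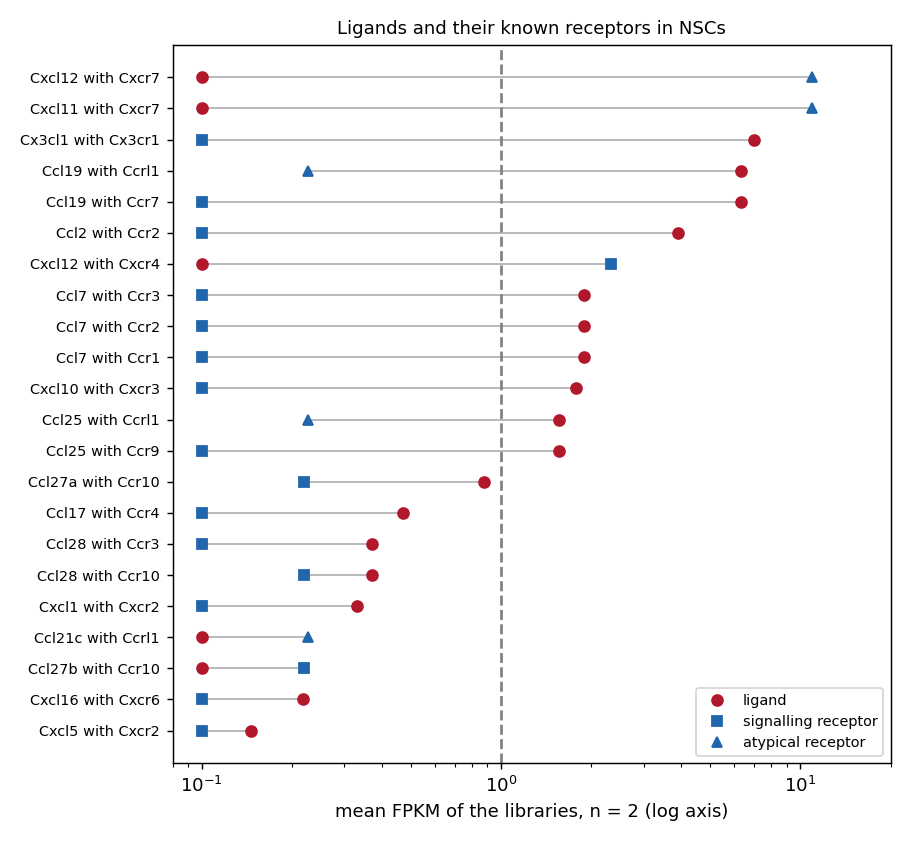
Mean FPKM on a log axis (n = 2 libraries) of ligands (red circles), signalling receptors (blue squares) and atypical receptors (blue triangles) for the 22 pairs with either gene above 0.1, ordered by the higher of the pair; the dashed line is FPKM 1. No pair has both symbols right of the line.

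The 12 ligands above 0.1 that occur in these pairs have 11 signalling receptors, of which only Ccr10 was above 0.1. No signalling receptor of Cx3cl1, Ccl19, Ccl2, Ccl7, Cxcl10 or Ccl25 in the pairs was above the limit, where 77.3% of all 22 receptors were at it. The reverse held for Cxcr4 and Cxcr7, whose chemokine ligands were at the limit. These are RNA levels of a culture, and binding or secretion was not measured.

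**Figure D5:**
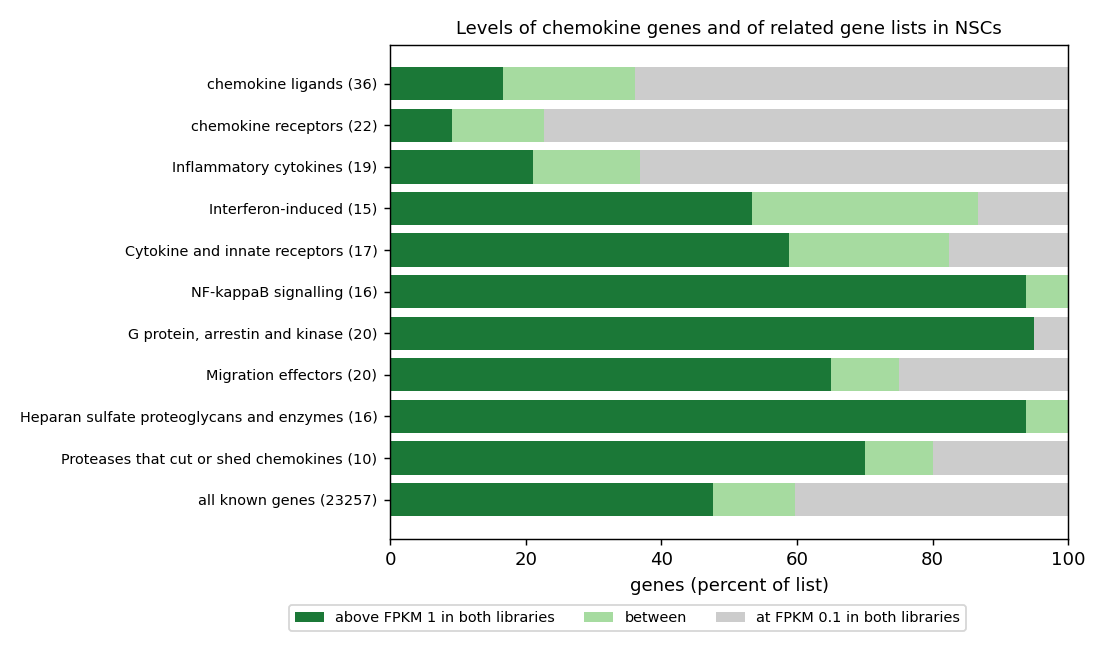
Percent of genes above FPKM 1 in both libraries (dark green), at FPKM 0.1 in both (grey) and between (light green) for chemokine ligands and receptors, 8 lists of related genes and all known genes, with the number of genes in brackets. Ligands, receptors and inflammatory cytokines have the largest grey parts of the lists drawn.

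The genes through which chemokine receptors act had higher levels than most of the receptors. Of 20 G protein, arrestin and receptor kinase genes 19 (95.0%) were above FPKM 1 in both libraries, and their median FPKM was 16.8. They were led by the G protein gamma subunit gene Gng5 with 236 and 220, the inhibitory alpha subunit gene Gnai2 with 174 and 187 and the beta subunit gene Gnb1 with 157 and 161. Only Rgs1, a regulator known from lymphocytes, was at 0.1. Of 20 migration effectors 13 (65.0%) were above FPKM 1, against 53.1% of protein-coding known genes, led by the small GTPase genes Cdc42 (253 and 270), Rhoa (205 and 220) and Rac1 (196 and 200). The 5 at 0.1, Rac2, Dock2, Plcb2, Vav1 and Was, are known from blood cells.

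Heparan sulfate proteoglycans hold chemokines at cell surfaces, and 15 of 16 genes for them and their enzymes were above FPKM 1, led by the syndecan gene Sdc3 (87.9 and 88.7), the glypican gene Gpc1 (40.2 and 35.9) and Sdc4 (30.3 and 30.4). The lowest was Gpc3 with 0.484 and 0.607. Of 10 genes for proteases that cut or shed chemokines 7 (70.0%) were above FPKM 1. Beside both lists stands the share of protein-coding known genes, 53.1%, and with 10 protease genes nothing is read from the difference. The cathepsin genes came first, Ctsd with 159 and 171, Ctsb with 44.2 and 54.6 and Ctsl with 44.2 and 47.96. Mmp14 had 19.2 and 19.8, and Furin, a protein convertase, had 6.18 and 5.28. Mmp2, which can cut Ccl7 and Cxcl12, had 0.451 and 0.453. Dpp4, which trims several chemokines, and Mmp9 were at 0.1.

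Genes known to act upstream of many chemokines had measurable levels as well. Of 16 genes of NF-kappaB signalling 15 were above FPKM 1, among them the kinase gene Chuk (19.5 and 20.0), the subunit gene Rela (15.7 and 15.5) and the inhibitor gene Nfkbia (16.0 and 15.0). The lowest, Tnfaip3, a feedback inhibitor, had 0.526 and 0.537. Of 17 cytokine and innate receptors 10 (58.8%) were above FPKM 1, close to the 53.1% of protein-coding known genes. They were led by the TNF receptor gene Tnfrsf1a (40.4 and 40.1) and the interferon receptor genes Ifngr2 (13.8 and 13.3) and Ifnar1 (12.6 and 13.1). Tlr3, a sensor of double-stranded RNA, had 3.14 and 3.22, and Tlr4, Tlr9 and Tnfrsf1b were at 0.1.

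Inflammatory cytokine genes, like the chemokine genes, were mostly at the limit. Of 19 inflammatory cytokines 12 (63.2%) were at 0.1, against 40.3% of all known genes, Tnf, Il1b and Il6 among them, and 4 were above FPKM 1, led by Il18 (29.2 and 37.8), Csf1 (10.8 and 10.4) and Tgfb2 (3.78 and 3.36). Of 15 interferon-induced genes 8 (53.3%) were above FPKM 1, about the share of protein-coding known genes (53.1%), and 2, Ifit1 and Mx1, were at 0.1. B2m had 120 and 138, Ifitm3 24.6 and 25.2 and Stat2 8.04 and 8.26, while Isg15 had 0.270 and 0.375, lower than Cxcl10 in both libraries.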

How the data were processed

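The authors made paired-end, poly(A)-selected libraries that do not mark strand. Per the study's methods and the submitters' processing notes, reads were aligned to mm10 with TopHat2 2.0.11 and Bowtie2 2.2.2, and Cufflinks 1.3.0, with multi-read and bias correction, gave FPKM per library for UCSC known genes and lncRNAs. In the deposited FPKM, values below 0.1 had been set to 0.1. Low values (735 genes above 0.1 and under 0.3 in both libraries) gave 710 distinct ratios to 4 decimals. Whole reads could therefore not be recovered, and the depth of each library is not known here. The lncRNA table of 8714 entries named no chemokine.

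Every gene of the symbol pattern is accounted for, and those above 0.1 are named with both values. From each pathway list the 3 highest genes and the lowest are given, from marker lists mainly counts, and others that bind, cut or stand in for a named gene. Some items are not reported here. Genes and lists were chosen with earlier results of these data known. Values were counted against FPKM 1 and 0.1, with means and SDs (n = 2), in Python 3.11.15, NumPy 2.4.6 and pandas 2.3.3, and drawn with matplotlib 3.10.9. The SD of log2 ratios was checked on simulated data for genes above FPKM 10 only, not at lower levels. The count above a threshold was checked on 1 set of made values, not over both libraries. Gene positions came from GENCODE M21 (GRCm38, on which mm10 is based). All 58 symbols matched RefSeq, 3 under another symbol, and promoters are those of RefSeq (GRCm38.p6). No protein sequences were used here. Thresholds, the pseudocount (0.1), a filter on low values, the set of genes and each library alone were varied.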

Additional observations from a re-analysis of the deposited data

How the results depend on the processing

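The count of chemokine genes above FPKM 1 in both libraries (8) was 18 with a threshold of 0.1 and 3 with 5. By mean FPKM, 13.8% of the chemokine genes and 48.1% of known genes were above 1. These shares were 31.0% and 59.7% with a threshold of 0.1, 17.2% and 51.6% with 0.5, 5.17% and 35.4% with 5, and 44.4% and 80.5% among genes above 0.1 only. The chemokine share was 12.1% with chemokine genes that bear other symbols added, Pf4 and Ppbp among them, but not Mif or Cklf. The known-gene share was 53.5% over protein-coding genes, a choice made after seeing the data, as was leaving out genes with exon overlaps, which gave 6 genes above 1 and 13 above 0.1. The summed ligand FPKM (28.2) was 28.9 with the added genes. It was 20.8 without Ccl19, Ccl21c, Ccl27a and Ccl27b, genes taken as having copies, of which Ccl19 had a mean of 6.35. There the share of the highest ligand (24.8%) was 33.7%. The SD of the log2 ratio (0.24) was 0.14 with a pseudocount of 1. With each library alone, 8 to 9 genes were above 1 (13.8% to 15.5%, against 48.0% to 48.2% of known genes) and 18 above 0.1, the ligand sum was 27.8 to 28.6, the receptor sum 15.4 to 15.8 and the share of the highest ligand 23.9% to 25.8%. The SD of the ratio has no value for 1 library. No paired analysis was possible because there is 1 condition. The paper gives an average depth over its samples but not that of each library. A value of 0.1 therefore sets no exact limit on the reads behind it, and with 2 libraries an SD is itself poorly known. Values of genes with copies or opposite-strand overlaps (Ccl19, Ccl27a, Ccl25, Ccrl1, Cxcl10, Cxcl16) are uncertain.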

Other observations

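Cklf, a gene of a separate family whose name recalls chemokines, had an FPKM of 11.3 and 13.1 in replicates 1 and 2, close to the level of Cxcr7 (10.5 and 11.3). The regulator gene Rgs16, which shortens signals of G protein-coupled receptors, had 26.9 and 23.3, where Rgs1 was at 0.1. Arrb2, an arrestin gene, had 11.3 and 10.8. Exons of other genes with measurable levels also overlap chemokine genes that were at 0.1. Bcl9l, whose exons overlap 110 bases (3.30%) of the exons of Cxcr5 on the opposite strand, had 6.02 and 6.09, while Cxcr5 was at 0.1 in both libraries. Cadm3 overlaps 361 bases (25.7%) of the exons of Darc on the same strand and had 0.852 and 0.945, while Darc was at 0.1.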
